A study of Mus musculus with 16 samples.

Results

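The replication-dependent histone genes encode the H1, H2A, H2B, H3 and H4 proteins that package newly made DNA. They were taken as every non-control probe on the arrays whose gene name begins with Hist1h, Hist2h, Hist3h or Hist4h. This gave 55 of the 55681 probes and 49 of the 34797 gene names, namely 6 H1, 14 H2a, 12 H2b, 8 H3 and 9 H4 genes, of which 2 are annotated as pseudogenes. All 49 were well above background on enough arrays to be tested in every comparison. Of these genes, 36 lie on mouse chromosome 13, 9 on chromosome 3, 3 on chromosome 11 and 1 on chromosome 6 of the mm9 build.

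The samples were splenic B cells of AM14 mice, whose transgenic antigen receptor binds antibodies of the IgG2a isotype. The cells were taken unstimulated at 0 h or after 6, 24 or 42 h with PL2-3, an IgG2a antibody against chromatin that carries nucleic acid to the endosomal receptors TLR7 and TLR9. All of them carried AM14, in a WT, Tlr7-/-, Tlr9-/- or Tlr7/9-/- background, the last called the double knockout here. Every genotype was measured once at every time, on 16 two-colour arrays, with the sample in Cy5 and, in Cy3, a pool of unstimulated AM14 B cell RNA from all 4 genotypes. There was no dye swap and no cells cultured without PL2-3, so PL2-3 cannot be told apart from the hours in culture. Levels are given as the log2 ratio of the sample to that pool. A value of 0 is the level of the pool and a difference of 1 is a 2-fold change. Since no measurement was repeated, the genotypes stand in for replicates, and the p-values measure only the spread between these arrays. The labels do not say whether the samples came from separate animals.

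Most histone messages are made only while DNA is copied. They lack introns and end not in a poly(A) tail but in a short stem-loop, which is bound by the protein SLBP and cut by a complex that includes the U7 small nuclear RNA. When DNA synthesis stops, these messages are rapidly degraded. Some of the same genes also give longer, polyadenylated messages that read past the stem-loop, which are known from resting and differentiating cells. B cells taken from the spleen are mostly in the resting state and begin to copy DNA about a day after activation. Labelling began from a T7 promoter primer. What that primer annealed to is not given in the sources used here, so the share of stem-loop and of polyadenylated message behind each value cannot be stated.

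Where a probe sits on the message therefore matters for reading the values, and the probes fall into 3 groups by their sequence and start. Of the 49 genes, 29 were read by a probe in the body of the message, 8 by a probe that contains the stem-loop in whole or in part, and 12 by a distal probe, which starts at least 480 bases into a core histone transcript or 1000 bases into an H1 transcript. The stem-loop parts of the 8 probes are shown 5′ to 3′ because the stem-loop marks the processed end of the message, with its letters in capitals. The Hist1h2ab probe ends inside it. The Hist1h2ae probe begins inside it and the Hist2h2aa1 probe just before it, so most of both probes lies past the stem-loop. Their starts, at 541 and 488 bases, also pass the 480-base limit of the distal group. Counts and medians of the stem-loop group therefore mix these with probes that end near the processed end.
Hist1h2ab: aaacaaaGGCTCTTTTCA
Hist1h2ae: CTTTTCAGAGCCattcact
Hist2h2aa1: taaaaaGGCTCTTTTCAGAGCCacccact
Hist2h2bb: cccaaaaGGCTCTTTTCAGAGCCacttta
Hist1h3a: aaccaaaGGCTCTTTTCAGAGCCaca
Hist1h3g: ctttaaaGGCTCTTCTTAGAGCCaccca
Hist1h3i: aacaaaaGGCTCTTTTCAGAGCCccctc
Hist1h4m: aactaaaGGCCCTTTTCAGGGCCatccaa
The 6 probes that hold the whole stem-loop share its 16-letter length, and among them Hist1h3g and Hist1h4m differ from the others in the letters of the loop or the stem.

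Among the H2a body probes, those of 6 genes end at the stop codon of the reading frame. They are shown because they moved widely in time and because their letters are so alike that one message can bind several of them. The stop codon is in capitals.
Hist1h2af: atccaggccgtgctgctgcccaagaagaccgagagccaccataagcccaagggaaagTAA
Hist1h2ah: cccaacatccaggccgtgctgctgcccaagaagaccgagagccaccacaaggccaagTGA
Hist1h2ak: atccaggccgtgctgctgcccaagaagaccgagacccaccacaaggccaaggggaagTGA
Hist1h2an: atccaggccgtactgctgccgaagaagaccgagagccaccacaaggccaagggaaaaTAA
Hist2h2aa2: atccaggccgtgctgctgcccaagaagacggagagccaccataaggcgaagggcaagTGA
Hist2h2ac: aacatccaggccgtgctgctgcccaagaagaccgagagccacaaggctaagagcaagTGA
On these arrays 5 probes share at least 54 of their 60 bases with the probe of another member, all of them in H2a, and 14 of the 55 probes are listed under more than 1 RefSeq symbol. The 5 are those of Hist1h2af, Hist1h2ak, Hist1h2an, Hist2h2aa2 and Hist2h2ac, and that of Hist1h2ah shares 51 bases with the Hist1h2an probe. Their values are thus uncertain as those of single genes, and their close likeness is no independent repetition. Outside H2a, the probes used for Hist1h2bm, Hist1h3d and Hist1h4k are each listed under 4 RefSeq symbols and that of Hist1h4c under 3. Values given for these genes are likewise uncertain as those of single genes. Positions in mm9 are chr13:23626113-23626172 for the Hist1h2af probe, chr13:22127035-22127094 for Hist1h2ah, chr13:21878695-21878754 for Hist1h2an and chr3:96024378-96024437 for Hist2h2ac.

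On 15 of the arrays 40.9% to 62.7% of the Cy5 spots were well above background, and the Tlr9-/- 0 h array stood apart at 37.4% with a median brightness of 7.57 against 6.25 to 6.61 elsewhere (mean of the log2 Cy5 and Cy3 signals). WT and Tlr7-/- arrays shared one slide and Tlr9-/- and double knockout arrays the other, so the loss of Tlr9 and the slide cannot be told apart. The array labelled Tlr9-/- 24 h lay nearer in its histone values to the 42 h arrays of WT and Tlr7-/- than to their 24 h arrays. Its median absolute difference over the 49 genes was 0.57 from WT 42 h and 0.29 from Tlr7-/- 42 h, against 0.83 and 0.84 from their 24 h arrays. For the array labelled Tlr9-/- 42 h the order was the opposite, with 0.26 and 0.21 from the 24 h arrays of WT and Tlr7-/- against 1.37 and 1.08 from their 42 h arrays. Over all other genes these distances were 0.17 to 0.2 for the first array and 0.2 to 0.21 for the second. Whether the Tlr9-/- samples of 24 h and 42 h were exchanged was not tested, and this bears on every value that compares those 2 arrays. The labels were kept as given. Counts of the histone genes in the time comparisons and of the double knockout response are also given without the Tlr9-/- arrays, and single genes and lists where a call was gained or lost or a value moved by over 1.5 times. Of the histone genes called over the 3 genotypes, those also called in the same direction without the Tlr9-/- arrays were 35 of 36 at 6 h, 19 of 19 at 24 h and 14 of 17 at 42 h against 0 h, 18 of 18 between 6 h and 24 h and 3 of 3 between 24 h and 42 h.

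After 6 h with PL2-3 the histone messages had fallen. Over the WT, Tlr7-/- and Tlr9-/- arrays (n = 3 at each time), 36 of the 49 genes fell between 0 h and 6 h and none rose (limma, Benjamini-Hochberg adjusted p below 0.05 over all genes). At an unadjusted p below 0.05 the counts were also 36 lower and 0 higher. Among all genes tested, 23.8% fell and 22.9% rose. The median difference of the histone genes was -1.75, while that of all genes was 0. Without the Tlr9-/- arrays 42 genes fell, against 29.8% of all genes. The count was 22 without the WT arrays, 23 without the Tlr7-/- arrays and 25 without the Tlr9-/- 0 h array alone, the last of these left out after the data were seen. In bulk RNA, fewer cells holding a message and less of it in each cell cannot be told apart.

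The fall was called in every class. It was called for 5 of 6 H1 genes, 7 of 14 H2a, 10 of 12 H2b, 6 of 8 H3 and 8 of 9 H4 genes, with class medians between -1.5 for H3 and -2.08 for H1. By probe position it was called for 18 of 29 body, 7 of 8 stem-loop and 11 of 12 distal probes. With the Tlr9-/- arrays left out, 13 of 14 H2a genes and 24 of 29 body probes were called, and the other counts stayed as given. Leaving out the Tlr9-/- 0 h array alone gave 3 of 6 H1, 5 of 14 H2a, 8 of 12 H2b, 6 of 8 H3 and 3 of 9 H4 genes, and 8 of 29 body, 7 of 8 stem-loop and 10 of 12 distal probes. On the single arrays, at least a 2-fold fall from the genotype's own 0 h array was seen for 36 of 49 genes in WT, 36 in Tlr7-/- and 36 in Tlr9-/-, and for 33 of the 48 genes with a value in the double knockout. All genes tested passed that fold in 10.6%, 10.6%, 8.94% and 8.29% of cases. The 4 genotypes thus gave like counts at 6 h.

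Hist1h1c encodes the linker histone H1.2, one of the somatic H1 proteins that bind the DNA between nucleosomes, and its probe is distal. At 0, 6, 24 and 42 h it read 0.07, -4.64, -4.88 and -3.54 in WT. In Tlr7-/- cells it read 0.04, -4.77, -4.95 and -3.75. In Tlr9-/- cells it read 0.1, -4.25, -4.4 and -3.88, and in the double knockout -0.16, -3.64, -4 and -4.33. All 12 stimulated arrays lay far below all 4 unstimulated ones. The difference at 6 h was -4.62 (SE 0.15, limma adjusted p = 1.05e-07), the largest fall among the 49 genes.

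Hist1h1e, which encodes the linker histone H1.4 and has the brightest H1 probe, is read in the body of the message. It read 0.35, -3.25, -2.1 and 0.19 in WT over the 4 times, and 0.09, -2.95, -2.21 and -0.55 in Tlr7-/-. The Tlr9-/- arrays read 0.06, -2.9, -0.58 and -1.51, and the double knockout arrays -0.05, -2.18, -2.02 and -1.65. It fell at 6 h by 3.2 on the log2 scale (SE 0.48, limma adjusted p = 0.00044), and at 42 h its values were back at 0.19 in WT and -0.55 in Tlr7-/-. Hist1h1d, the linker histone H1.3, was read by a dim distal probe that was well above background in Cy5 on 2 arrays. It was not well above background on any 6 h array of the 3 genotypes, where its level was at least 1.42-fold lower than at 0 h (limma adjusted p = 0.00305). These folds of dim probes set the bright group's mean against the higher of the array's lowest signal well above background and the probe's own. Hist1h1t, the linker histone of the testis, has no value on the double knockout 6 h array. On the other arrays it lay between -0.06 and 0.63, and none of the 5 time comparisons called it, with a limma adjusted p of 0.139 to 0.718.

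Among H2B genes, Hist1h2bm has the brightest probe, in the body. It read 0.29, -4.04, -1.52 and 0.53 in WT over the 4 times, and 0.11, -4.05, -1.82 and 0.21 in Tlr7-/-. The Tlr9-/- arrays read -0.06, -3.82, 0.08 and -1.78, and the double knockout arrays 0.02, -3.67, -2.26 and -1.03. It fell at 6 h by 4.08 on the log2 scale (SE 0.62, limma adjusted p = 0.000447), with every 6 h array below every other array. Hist1h2bg was read by a distal probe. It read 0.17 to 0.38 on the 4 arrays at 0 h and between -2.23 and -3.46 on all 12 later arrays. At 6 h it was not well above background on any of the 3 arrays, which makes it at least 11-fold lower than at 0 h (limma adjusted p = 1.49e-06).

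H4 genes gave falls of -1.63 in the median. Hist1h4i read 0.44, -3.61, -2.47 and -0.41 in WT on its body probe, and -0.28, -3.76, -2.74 and -1.35 in Tlr7-/-. In Tlr9-/- cells it read 0.26, -3.72, -1.64 and -2.53, and in the double knockout 0, -3.5, -2.74 and -2.28. Its difference at 6 h was -3.83 (SE 0.44, limma adjusted p = 7.53e-05). Hist1h4m, read at the stem-loop, fell by 3.42 on the log2 scale (SE 0.31, limma adjusted p = 1.66e-05), and Hist1h4c, read in the body, by 2.83 (SE 0.37, limma adjusted p = 0.000163). Hist1h4k, with the brightest H4 probe, fell by 1.6 (SE 0.55, limma adjusted p = 0.0385), with an adjusted p of 0.0914 without the Tlr9-/- 0 h array.

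The Hist1h3d probe, the brightest of H3, took another course at 6 h. It is listed under 4 RefSeq symbols, among them that of Hist1h3i, so its values may not be those of a single gene. The stem-loop probe of Hist1h3i changed from 0 h to 6 h by -2.24 in WT, -2.35 in Tlr7-/- and -2.1 in Tlr9-/-. The Hist1h3d probe read 0, 0.05, -0.71 and 0.15 in WT and 0.07, 0.03, -0.72 and 0.07 in Tlr7-/-. It read -0.04, 0.05, -0.09 and -0.89 in Tlr9-/- and -0.22, 0.13, -0.69 and -0.5 in the double knockout. Its 4 values at 6 h lay between 0.03 and 0.13 and those at 0 h between -0.22 and 0.07, and the difference from 0 h was 0.03 (SE 0.27, limma adjusted p = 0.935). Hist1h3c, also read in the body, fell by 1.37 on the log2 scale at 6 h (SE 0.2, limma adjusted p = 0.000308). Among all 49 genes, the differences at 6 h ran from -4.62 to 0.19.

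**Figure D1:**
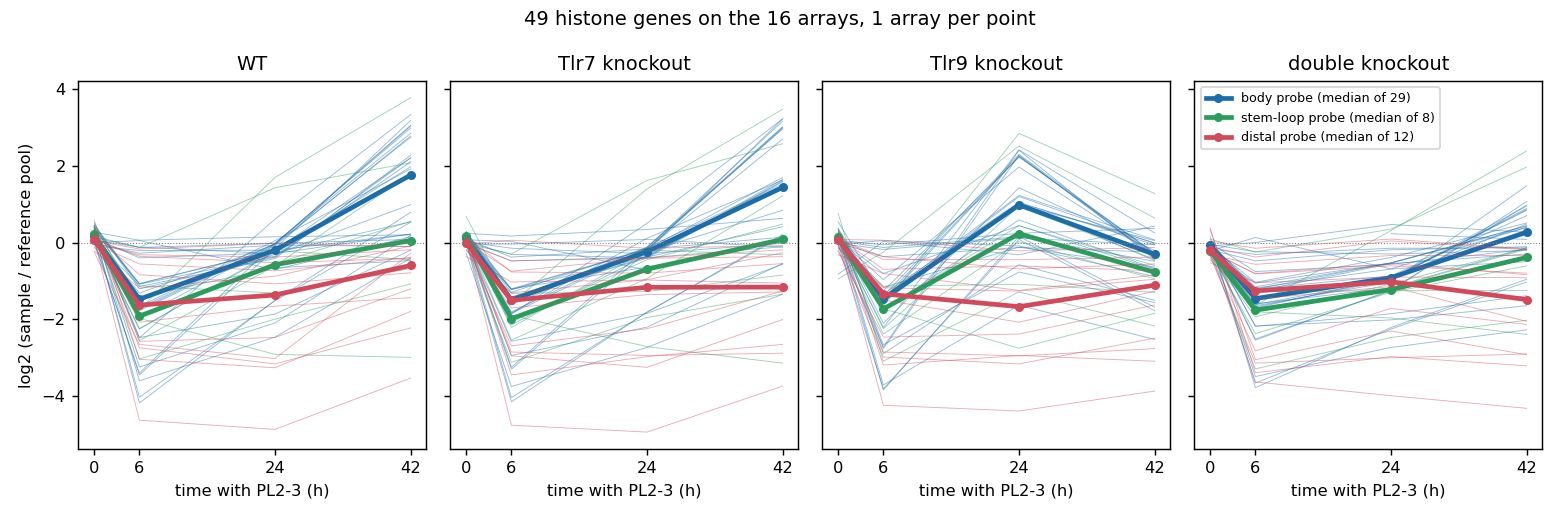
Log2 ratio of sample to reference pool (vertical axis) at 0, 6, 24 and 42 h (horizontal axis) for the 49 histone genes (thin lines) and the medians of the 29 body, 8 stem-loop and 12 distal probes (thick lines), with 1 panel per genotype and 1 array per time. The body median was highest at 42 h in WT (1.76) and Tlr7-/- (1.44) but at 24 h on the arrays labelled Tlr9-/- (0.98).

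The return from that low was called at body and stem-loop probes, with few or no distal probes. Between 6 h and 24 h, 17 of the 49 genes rose and 1 fell, against 14.1% and 17.9% of all genes (limma adjusted p below 0.05, n = 3 arrays at each time). The 17 comprised 11 of 29 body probes and 6 of 8 stem-loop probes, and none of the 12 distal probes, whose median difference was -0.07. Some distal probes were too dim to show a small return. Those of Hist1h1d, Hist1h2bq and Hist1h2bp were well above background in Cy5 on 2, 4 and 5 of the 16 arrays. Those of Hist1h1c, Hist1h2bc, Hist3h2a and Hist3h2ba were so on all 16. At an unadjusted p below 0.05, 27 of the 49 genes were higher and 1 lower. The gene that fell further was Hist2h2aa1, by 0.93 on the log2 scale (SE 0.23, limma adjusted p = 0.0137). Without the Tlr9-/- arrays 29 genes rose and 2 fell, against 19.7% and 21.3% of all genes. The 29 were then 22 of 29 body, 6 of 8 stem-loop and 1 of 12 distal probes, and 1 body and 1 stem-loop probe fell. Without the WT arrays, as without the Tlr7-/- arrays, 3 genes were called. When each array was centred on its median in place of loess, 28 rose and 1 fell.

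At 24 h the histone genes as a group were near their starting level, with a median difference from 0 h of -0.27. One gene was higher and 18 were lower, against 22.6% and 26% of all genes (limma adjusted p below 0.05, n = 3). The lower genes were 4 of 29 body, 3 of 8 stem-loop and 11 of 12 distal probes. Without the Tlr9-/- arrays 2 were higher and 32 lower, against 27.5% and 30.4% of all genes. The lower ones were then 15 of 29 body (median -0.37), 6 of 8 stem-loop and 11 of 12 distal probes, and both higher ones were stem-loop probes. The body median of -0.04 turned to 0.63, the H3 median of -0.39 to 0.24 and the H4 median of -0.24 to 0.44 with median centring, which moved the median of all genes by 0.22. The 24 h level of the body probes relative to 0 h therefore has no settled sign.

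At 42 h, 2 genes were higher than at 0 h and 15 lower, against 17.2% and 20.6% of all genes (limma adjusted p below 0.05, n = 3). The lower ones were 1 body, 4 stem-loop and 10 of 12 distal probes. Median centring gave 12 higher and 14 lower, and turned the H3 median from -0.21 to 0.09. The Cy5 channel alone turned the median of all 49 genes from -0.14 to 0.01. Without the Tlr7-/- arrays 11 genes were called. Without the Tlr9-/- arrays 20 were higher and 13 lower, against 22% and 26.5% of all genes, and the higher ones included 17 of the 29 body probes, with 8 genes of H2a, 5 of H4, 3 of H3, 2 of H1 and 2 of H2b. The 13 lower ones were 2 body, 4 stem-loop and 7 distal probes.

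The H2a body probes show the course most clearly. Hist1h2ah read 0.13, -1.96, -0.04 and 3.04 in WT at 0, 6, 24 and 42 h. It read 0.16, -1.85, -0.18 and 2.99 in Tlr7-/-, 0.14, -1.55, 2.25 and -0.3 in Tlr9-/-, and -0.07, -1.68, -0.97 and 0.89 in the double knockout. The 6 h arrays were low in all genotypes, and the highest array was that of 42 h in WT, Tlr7-/- and the double knockout but that of 24 h in Tlr9-/-. Over the 3 genotypes the fall at 6 h was -1.93 (SE 0.9, limma adjusted p = 0.114). Without the Tlr9-/- arrays it was -2.05 (SE 0.1, limma adjusted p = 1.21e-06), and the difference between 42 h and 0 h was 2.87. Hist1h2an and Hist1h2ag, of the same class, were already called over the 3 genotypes at 6 h, at -3.19 (SE 1, limma adjusted p = 0.0253) and -3.32 (SE 0.94, limma adjusted p = 0.0157). Their adjusted p was 0.0649 and 0.0526 without the Tlr9-/- 0 h array alone. The Hist1h2ag probe is placed in mm9 at chr13:23666685-23726365 on the plus strand, a span of 59681 bases for a probe of 60. The promoter of that gene lies at chr13:22042900-22043199 on the minus strand in GRCm38.p6. Which gene this probe reads is therefore uncertain.

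Hist1h3g, an H3 gene read at the stem-loop, rose above its starting level. It read 0.13, -0.13, 1.43 and 2.08 in WT and -0.03, -0.3, 1.62 and 2.58 in Tlr7-/-. It read -0.95, -0.25, 2.52 and 0.64 in Tlr9-/- and 0.09, -0.25, 0.35 and 1.97 in the double knockout. The difference of 24 h from 0 h was 2.14 (SE 0.47, limma adjusted p = 0.00396), and that of 42 h from 0 h was 2.05 (SE 0.47, limma adjusted p = 0.00716). At 6 h the probe was not well above background on any of the 3 arrays, so the rise from 6 h to 24 h was at least 5.47-fold (limma adjusted p = 0.00876). The stem-loop probe of the H2a gene Hist1h2ab, chosen after its values were seen, was the other member called higher at 42 h and read 3.78 in WT, 3.48 in Tlr7-/-, 1.28 in Tlr9-/- and 2.39 in the double knockout at that time.

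The classes returned to different heights. The H2a median on the WT arrays was 0.07, -1.76, -0.12 and 2.76 at the 4 times, and the H4 median 0.39, -1.15, -0.38 and 1.76. The H2b median was 0.19, -1.88, -0.81 and -0.11, and thus still below its start at 42 h. H1 went from 0.15 to -2.08, -0.24 and 0.2, and H3 from 0.18 to -1.45, -0.43 and 0.35. The classes differ in where they were read, since 7 of 12 H2b genes but 2 of 14 H2a genes have a distal probe. Body probes were used for 9 H2a, 8 H4, 4 H1, 4 H2b and 4 H3 genes.

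On single arrays the return could be counted against the genotype's own 0 h array, with no test. At 24 h, 16 of 49 genes were at least 2-fold lower in WT, 15 in Tlr7-/-, 12 in Tlr9-/- and 19 in the double knockout, where 9.81%, 9.71%, 10% and 4.14% of all genes were. At least 2-fold higher were 2, 1, 12 and 0 in the same order, against 9.1%, 9.1%, 10.4% and 3.78% of all genes. At 42 h, 18 genes were at least 2-fold higher in WT, 19 in Tlr7-/-, 2 in Tlr9-/- and 7 in the double knockout, against 6.59%, 7.36%, 7.02% and 6.29%. At least 2-fold lower were 7, 9, 15 and 14, against 5.85%, 7.49%, 6.51% and 5.18%. WT and Tlr7-/- gave nearly equal counts at each time.

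The stem-loop probe of Hist2h2aa1 went the other way. It read 0.01, -1.98, -2.92 and -3 in WT, and 0.16, -1.9, -2.72 and -3.15 in Tlr7-/-. It read 0.17, -1.73, -2.76 and -1.85 in Tlr9-/-, and -0.18, -1.81, -1.97 and -2.4 in the double knockout. No stimulated array came back to its 0 h level, and the differences from 0 h were -1.99, -2.92 and -2.78 at 6, 24 and 42 h (SE 0.23 each, limma adjusted p = 7.98e-05, 9.96e-06 and 2.94e-05). Hist2h2aa2, read at the stop codon by the probe shown above and chosen here after its values were seen, read 0.1, -1.32, -0.05 and 2.75 in WT. In mm9 the Hist2h2aa1 probe lies at chr3:96049949-96050008 and the Hist2h2aa2 probe at chr3:96049837-96049896, on the same strand. The Hist2h2aa2 probe is listed under the RefSeq symbols of both genes. Both probes may thus read one gene, before its stem-loop and mostly past it. They cannot be taken as 2 genes with opposite courses.

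**Figure D2:**
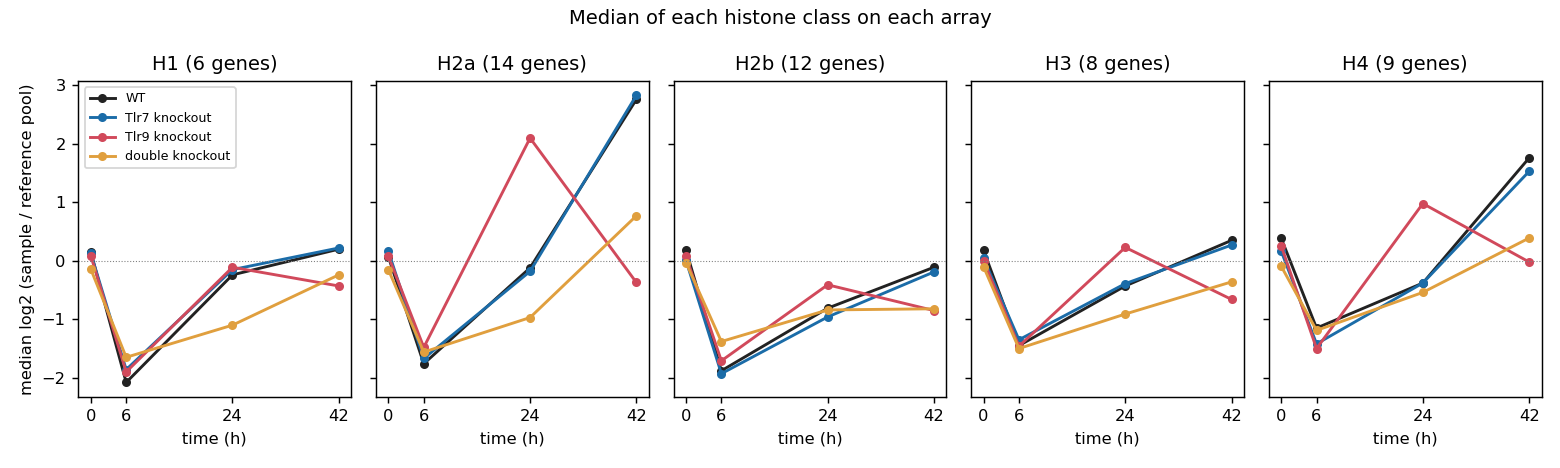
Median log2 ratio of sample to reference pool (vertical axis) at 0, 6, 24 and 42 h (horizontal axis), with 1 panel for each of the H1, H2a, H2b, H3 and H4 classes and 1 line per genotype. All classes were low at 6 h in all genotypes, and at 42 h the H2a medians of WT and Tlr7-/- were 2.76 and 2.83 against -0.37 in Tlr9-/- and 0.77 in the double knockout.

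The distal probes stayed low. Their median on the WT arrays was 0.07, -1.64, -1.37 and -0.6 at the 4 times. In Tlr7-/- cells it was -0.01, -1.51, -1.17 and -1.17, in Tlr9-/- cells 0.08, -1.34, -1.67 and -1.11, and in the double knockout -0.19, -1.27, -1.03 and -1.49. Hist1h2bc, an H2B gene, read 0.59, -3.05, -3.27 and -1.8 in WT and 0.2, -2.96, -3.26 and -2.01 in Tlr7-/-. It read -0.19, -2.99, -3.17 and -2.5 in Tlr9-/- and 0.33, -3.06, -2.31 and -2.93 in the double knockout. Its differences from 0 h were -3.2, -3.43 and -2.3 at 6, 24 and 42 h (SE 0.18 each, limma adjusted p = 1.03e-06, 1.44e-06 and 1.93e-05).

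Other distal members followed. The H2A gene Hist3h2a differed from 0 h by -1.78, -1.71 and -1.34 (SE 0.2 each, limma adjusted p = 6.05e-05, 9.28e-05 and 0.000637). The H2B gene Hist3h2ba differed by -2.61, -2.41 and -1.4 (SE 0.16 each, limma adjusted p = 1.49e-06, 3.56e-06 and 0.000131). Hist2h3c2-ps, an H3 pseudogene, differed by -0.73, -0.94 and -0.74 (SE 0.14 each, limma adjusted p = 0.00162, 0.00038 and 0.00237). Hist2h2be, an H2B gene, was lower at 6 h by -1.04 (SE 0.17, limma adjusted p = 0.000807) and at 24 h by -0.85 (SE 0.17, limma adjusted p = 0.0027), and at 42 h the difference was -0.25 (adjusted p = 0.293). For Hist1h2ac, an H2A gene, 11 of the 12 arrays at 6, 24 and 42 h lay between -2.66 and -3.15. The WT 42 h array alone read -0.28. That array had 435 outlier-flagged spots, the most after the Tlr9-/- 0 h array. It read 0.34 for Gins2 and 0.61 for Bub1b, chosen after their values were seen, against 3.28 and 4.25 in Tlr7-/- at 42 h. The medians of their lists, DNA synthesis and mitosis, were 2.04 and 3.66 in WT and 2.16 and 3.98 in Tlr7-/-. Whether the array misread single genes was not tested. The Hist1h2ac difference from 0 h was -1.99 at 42 h (SE 0.52, limma adjusted p = 0.0137). That call was lost without the Tlr9-/- arrays, at -1.52 (SE 0.61, limma adjusted p = 0.0715), and without the Tlr9-/- 0 h array alone, at -1.77 (adjusted p = 0.0553).

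Between 24 h and 42 h, 3 of the 49 genes rose over the 3 genotypes and none fell, against 2.13% and 3.58% of all genes (limma adjusted p below 0.05, n = 3). At an unadjusted p below 0.05, 5 were higher and 1 lower. The 3 were the distal probes of Hist1h1c at 1.02 (SE 0.15, adjusted p = 0.015), Hist1h2bc at 1.13 (SE 0.18, adjusted p = 0.0158) and Hist3h2ba at 1 (SE 0.16, adjusted p = 0.0158). No gene was called without the WT arrays, without the Tlr7-/- arrays, from the deposited processed signals, from Cy5 alone or with all 16 arrays. Without the Tlr9-/- arrays 35 rose, against 13.4% of all genes, comprising 24 of 29 body, 6 of 8 stem-loop and 5 of 12 distal probes. On the Tlr9-/- arrays these 3 distal probes were also higher at 42 h than at 24 h, at -3.88 against -4.4 for Hist1h1c.

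The array labelled Tlr9-/- 42 h stood lower than its 24 h array where the others stood higher. On single arrays, 28 of 49 histone genes were at least 2-fold higher at 42 h than at 24 h in WT, 25 in Tlr7-/- and 16 in the double knockout, against 3.17%, 2.24% and 1.32% of all genes. In Tlr9-/- none was, against 1.51% of all genes, and 22 were at least 2-fold lower, against 2.31%. The change of Tlr9-/- from 24 h to 42 h was compared with that of WT and Tlr7-/- in a fit with 3 residual degrees of freedom. Tlr9-/- has 1 array at each time, so the spread comes from WT and Tlr7-/- alone, on one slide, and is assumed to hold for Tlr9-/-. The change was lower for 32 of the 49 genes and higher for 2, against 7.15% and 5.65% of all genes (limma adjusted p below 0.05). The median difference of the changes was -2.06. This pattern was already known from these data when the comparison was chosen. WT and Tlr7-/- lie on one slide and Tlr9-/- on the other, so the slide and the loss of Tlr9 cannot be told apart in this result. Whether the 24 h and 42 h samples of Tlr9-/- were exchanged was not tested, and the distances given above, nearest to the other time in WT and Tlr7-/-, stand beside it.

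By class the lower change was called for 10 of 14 H2a, 8 of 9 H4, 6 of 8 H3, 4 of 6 H1 and 4 of 12 H2b genes. By position it was called for 24 of 29 body probes (median -3.23), 7 of 8 stem-loop probes (median -1.86) and 1 of 12 distal probes (median -0.4, and 0.01 from Cy5 alone). Hist1h2an had the largest difference. It read -0.16 at 24 h and 3.19 at 42 h in WT and -0.23 and 3.23 in Tlr7-/-, but 2.41 and -0.44 in Tlr9-/- and -1.24 and 0.98 in the double knockout. The difference of the Tlr9-/- change was -6.25 (SE 0.17, limma adjusted p = 5.45e-06). The 2 genes with a higher change were Hist2h2aa1 at 1.17 (SE 0.19, limma adjusted p = 0.00725) and Hist1h4h, an H4 gene chosen after its values were seen, at 0.8 (limma adjusted p = 0.0381). Hist1h1c, whose distal probe was the one called in that group, differed by -0.75 (SE 0.16, limma adjusted p = 0.0228).

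**Figure D3:**
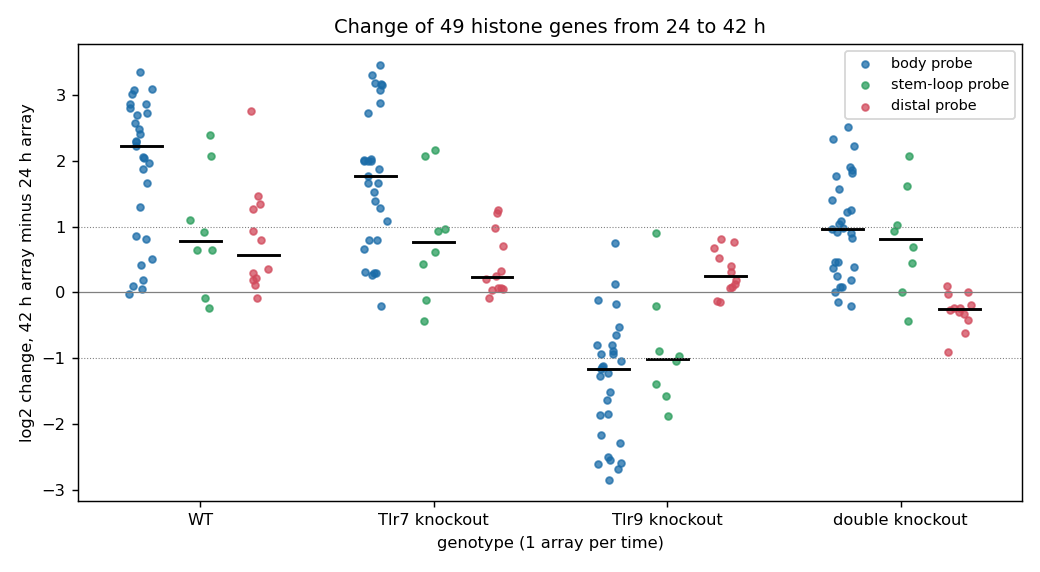
Change of each histone gene from 24 h to 42 h on the log2 scale (vertical axis) in each of the 4 genotypes (horizontal axis), 1 point per gene, coloured by probe position, with a bar at each median. Body probes lie mostly above 0 in WT (median 2.23), Tlr7-/- (median 1.77) and the double knockout (median 0.96) and below 0 in Tlr9-/- (median -1.16).

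The double knockout arrays were low at 6 h like the others. Their body median was -0.07, -1.47, -0.92 and 0.27 at the 4 times. That of WT was 0.16, -1.48, -0.2 and 1.76, that of Tlr7-/- 0.11, -1.5, -0.24 and 1.44, and that of Tlr9-/- 0.1, -1.47, 0.98 and -0.31. At 42 h the double knockout thus lay below WT and Tlr7-/- and above Tlr9-/-. Over the 3 later times, no histone gene was called between the double knockout and the other 3 genotypes, against 1.31% of all genes (limma), and 1 was higher and 0 lower at an unadjusted p below 0.05. That comparison averages the times, and the unlike course of Tlr9-/- enters its error, with an SE of up to 0.89. The change from 0 h also gave no call at 6, 24 or 42 h, against 0.0592%, 0.22% and 0.0423% of all genes, with a median SE of 0.73 on the log2 scale. The unadjusted counts (limma, p below 0.05) were 2 higher and 0 lower at 6 h, 4 higher and 1 lower at 24 h, and 0 higher and 2 lower at 42 h.

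Leaving out the Tlr9-/- arrays changed those counts. The change from 0 h was then compared between the double knockout and both WT and Tlr7-/-, which lie on the other slide, with 3 residual degrees of freedom. The double knockout has 1 array at each time, so here too the spread comes from WT and Tlr7-/- alone and is assumed to hold for it. At 6 h, 4 genes had a higher difference in the double knockout and none a lower one, against 1.36% and 0.637% of all genes (limma adjusted p below 0.05). At 24 h the counts were 4 higher and 7 lower, against 7.39% and 6.43%. At 42 h they were 1 higher and 18 lower, against 4.57% and 3.57%, and the 18 comprised 16 of 29 body, 1 of 8 stem-loop and 1 of 12 distal probes.

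Hist1h2an shows the size. It rose from 0 h to 42 h by 3.14 in WT and 3.13 in Tlr7-/- and by 1.15 in the double knockout, a difference of -1.98 (SE 0.17, limma adjusted p = 0.000782). For Hist1h2ah the changes were 2.9, 2.84 and 0.96, a difference of -1.91 (SE 0.17, limma adjusted p = 0.000974). For Hist1h2bm they were 0.24, 0.1 and -1.05, a difference of -1.23 (SE 0.19, limma adjusted p = 0.00792). Hist2h2aa1 was the gene with a higher difference, at 0.94 (SE 0.19, limma adjusted p = 0.0251), with a change of -2.22 in the double knockout against -3 in WT and -3.32 in Tlr7-/-. At 24 h the change of Hist1h1c from 0 h was -3.84 in the double knockout against -4.95 and -4.99 in WT and Tlr7-/-, a difference of 1.13 (SE 0.16, limma adjusted p = 0.00628). On the slide it shares with Tlr9-/-, the double knockout changed in Hist1h2an from 0 h to 42 h by 1.15 against -0.38, and from 0 h to 24 h by -1.07 against 2.48, with 1 array each and no test.

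The single knockouts were compared with WT and with each other over 6, 24 and 42 h. No histone gene was called between Tlr7-/- and WT, the pair within one slide, against 0.00434% of all genes, or between the double knockout and Tlr9-/-, the pair within the other, against 0.0434% (limma). Across slides none was called between Tlr9-/- and WT, against 0.0521%, or between Tlr9-/- and Tlr7-/-, against 0.126%. At an unadjusted p below 0.05 the counts of histone genes (limma) were 0, 1, 0 and 0 in the same order. The median SE of these comparisons was 0.41 on the log2 scale and the largest 1.1. At the median error a difference below 2-fold was not detectable with 3 arrays a genotype, each of a different time. Differences well above 2-fold could also miss the threshold, since the p-values were adjusted over all genes tested. Each comparison averages the 3 times, so differences of opposite sign cancel and widen the error. Hist1h2an read 2.41 in Tlr9-/- and -0.16 in WT at 24 h, but -0.44 and 3.19 at 42 h. The lack of calls for Tlr9-/- therefore does not show equal levels at each time. The medians over the 49 genes were -0.11 for Tlr7-/- less WT, -0.15 for Tlr9-/- less WT, -0.09 for Tlr9-/- less Tlr7-/- and -0.24 for the double knockout less Tlr9-/-. The third of these turned to 0.08 from Cy5 alone.

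**Figure D4:**
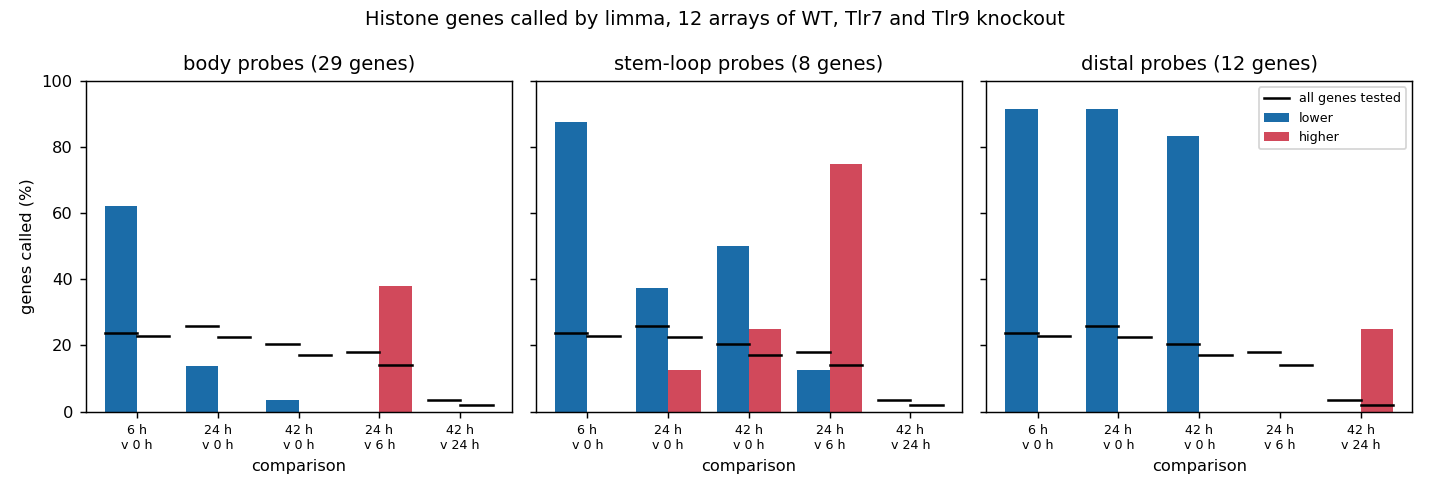
Share of the histone genes called lower or higher in percent (vertical axis, limma adjusted p below 0.05) in each time comparison over the 12 arrays of WT, Tlr7-/- and Tlr9-/- (horizontal axis), with a panel for each probe position and black lines for the share of all genes tested. Falls at 6 h occur in all 3 panels, and the rise from 6 h to 24 h in 11 body and 6 stem-loop probes and no distal probe (1 distal probe without the Tlr9-/- arrays).

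Probes of one gene did not always read alike. The 3 probes of Hist1h4i read -3.61 on the body and -0.55 and -2.41 on the distal probes at 6 h in WT. In the same order they read -0.41, -0.18 and -0.43 at 42 h in WT, and -1.35, -0.55 and -0.73 in Tlr7-/-. Neither of these distal probes is among the 12 used for their genes. For Hist2h4, an H4 gene, the brightest probe read 2.21 at 42 h in WT and the other -0.7, both in the body. Those of Hist1h2ak read -1.78 and -3 at 6 h in WT, and 2.78 and 2.9 at 42 h. The distal probe of Hist4h4 was well above background on 1 array, while its body probe was so on all 16. These 3 genes besides Hist1h4i were chosen after their values were seen.

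The other genes of the pathway were taken from lists chosen with earlier results of these data known. Of 16 tested genes for making the stem-loop message, 6 were higher and 1 lower at 6 h, 8 and 1 at 24 h, and 7 and 1 at 42 h against 0 h. Among all genes tested, as given above, 22.9% were higher and 23.8% lower at 6 h, 22.6% and 26% at 24 h, and 17.2% and 20.6% at 42 h. Slbp, whose protein binds the stem-loop, read -0.44, 0.06, 0.86 and 0.75 in WT at the 4 times and -0.23, -0.23, -0.01 and 0.62 in the double knockout. It was higher at 24 h by 1.08 (SE 0.28, limma adjusted p = 0.00946) and had an adjusted p of 0.547 at 6 h and 0.0532 at 42 h. It was called at 42 h too without the Tlr9-/- arrays, at 1.27 (SE 0.14, limma adjusted p = 0.000133). Lsm11, a protein of the U7 particle, was higher at 6 h by 1.31 (SE 0.17, limma adjusted p = 0.000153), when the histone messages were low. Cpsf2, which encodes a subunit of the cleavage complex, was the member called lower at 42 h, at -0.41 (SE 0.08, limma adjusted p = 0.00258). The list's medians were 0.31, 0.56 and 0.39 at 6, 24 and 42 h, where the median of all genes was 0 to 0.01.

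Histone chaperones, which carry new histones to DNA, were higher in 11 of 20 genes at 6 h, 11 at 24 h and 12 at 42 h, with 2, 1 and 1 lower. These are shares above those of all genes called higher, 22.9%, 22.6% and 17.2%. Chaf1a, the large subunit of the assembly factor CAF-1, read -0.17, 0.03, 3.27 and 3.65 in WT, and 0.01, -0.03, 1.96 and 2.93 in the double knockout. It was higher at 24 h by 3.33 (SE 0.33, limma adjusted p = 3.91e-05). Asf1b, a chaperone of H3 and H4, was higher at 24 h by 2.54 (SE 0.34, limma adjusted p = 0.000232), and Mms22l, which acts at damaged forks, was lower, at -0.72 (SE 0.12, limma adjusted p = 0.00072).

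The histone variants, listed as replication-independent and with mostly polyadenylated messages, moved as single genes. Of 12 tested, 2 were higher and 2 lower at 6 h, 1 and 3 at 24 h, and 1 and 2 at 42 h, which is below the shares of all genes given for the stem-loop list. Of 11 tested without the Tlr9-/- arrays, 5 were higher and 2 lower at 42 h. H2afz, which encodes H2A.Z, read 0.16, 0.59, 1.19 and 2.27 in WT and -0.14, 0.92, 2.15 and 0.23 in Tlr9-/-. It was higher at 24 h by 1.45 (SE 0.5, limma adjusted p = 0.0382) and did not share the fall at 6 h, where its difference was 0.7 (adjusted p = 0.296), or 0.52 (SE 0.1, limma adjusted p = 0.00195) without the Tlr9-/- arrays. H3f3a and H3f3b both encode H3.3. At 6 h H3f3a was lower, at -1.79 (SE 0.19, limma adjusted p = 5.38e-05), and H3f3b higher, at 0.42 (SE 0.13, limma adjusted p = 0.0252) and 0.24 (adjusted p = 0.0454) without the Tlr9-/- arrays.

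Genes of DNA synthesis and of mitosis showed another course. At 6 h, 7 of 33 DNA synthesis genes were higher and 3 lower, with a median of 0.08, and none of 20 mitosis genes was called, with a median of -0.06 (limma). When the Tlr9-/- arrays were left out, 10 and 8 DNA synthesis genes and 2 and 4 mitosis genes were higher and lower. The shares of all genes at 6 h, 22.9% higher and 23.8% lower, were above those of the mitosis list. At 24 h 29 of the 33 and 18 of the 20 were higher and none was lower, against 22.6% and 26% of all genes, with medians of 2.06 and 2.53. Rrm2, a subunit of the enzyme that makes deoxyribonucleotides, read -0.23, -1.24, 3.91 and 4.79 in WT and was higher at 24 h by 4.07 (SE 0.56, limma adjusted p = 0.000263). Top2a, the topoisomerase of dividing cells, read -0.1, -0.03, 3.21 and 4.11 in WT and 0, -0.19, 1.38 and 3.13 in the double knockout. At 24 h in WT the body probes of the histone genes thus had a median of -0.2 while the DNA synthesis genes had one of 2.

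Between 24 h and 42 h the lists moved with the histone body probes in part. The DNA synthesis median went from 2 to 2.04 in WT and from 2.22 to 1.05 in Tlr9-/-. The mitosis median went from 2.07 to 3.66 in WT, from 3.68 to 1.11 in Tlr9-/- and from 0.62 to 2.78 in the double knockout. The change of Tlr9-/- against WT and Tlr7-/- was lower for 23 of 33 DNA synthesis genes, 19 of 20 mitosis genes, 9 of 20 chaperones, 5 of 12 variants and 2 of 16 genes for the stem-loop message, against 7.15% of all genes (limma adjusted p below 0.05). For Slbp it was -1.28 (SE 0.23, limma adjusted p = 0.0111), for H2afz -3.05 (SE 0.17, limma adjusted p = 3.95e-05) and for Top2a -3.45 (SE 0.22, limma adjusted p = 7.25e-05).

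**Figure D5:**
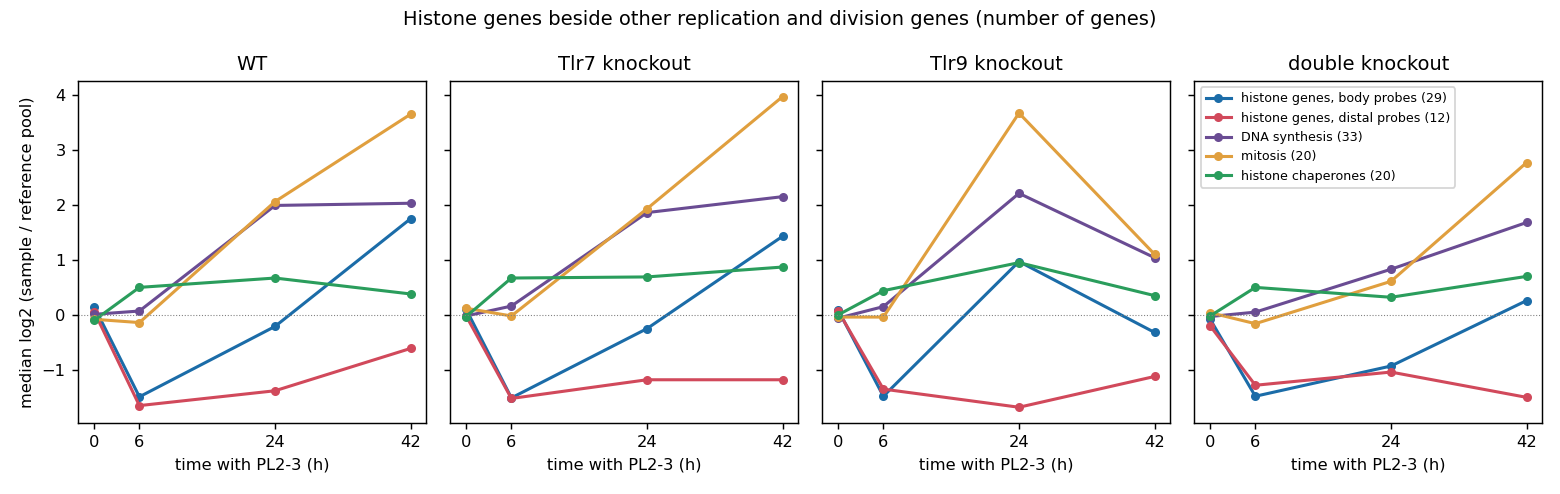
Median log2 ratio of sample to reference pool (vertical axis) at 0, 6, 24 and 42 h (horizontal axis) for the histone body and distal probes and the lists of DNA synthesis, mitosis and chaperone genes, with 1 panel per genotype. In WT the DNA synthesis median reached 2 at 24 h, when the histone body median was -0.2, and the histone body median reached 1.76 at 42 h.

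The promoters of the members were searched for short letter motifs in both strands, in windows of 300 bases from RefSeq in the GRCm38.p6 build (250 before to 50 after the start), a different build from that of the probes. Of the 49 genes, 43 matched, with 44 promoters. ATTTGCAT, the octamer that OCT1 binds, was in 13 of 44 (29.5%) against 1.74% of 32851 promoters, with 7 of 14 in H2a, 6 of 10 in H2b and none in H1, H3 or H4. TATAAA was in 59.1% against 13.6%. CCAAT was in 86.4% against 37.4%, in all of the H1, H2a, H2b and H3 windows and 2 of 8 H4 windows. AAACACA, the H1 box, was in 20.5% against 7.18%, with 5 of 6 in H1, 2 of 14 in H2a, 2 of 10 in H2b and none in H3 or H4. TTTCGCGC, a sequence of the kind E2F proteins bind, was in 11.4% against 0.323%, with no match of TTTGGCGC. The windows of 3 neighbouring H2a and H2b pairs overlap. Those of Hist1h2aa and Hist1h2ba share 220 bases and those of Hist1h2ae and Hist1h2bg 279, and both windows of each pair hold the octamer, so the 13 are not independent. Those of Hist1h2an and Hist1h2bp share 261 bases without it. Such matches describe letters and show no binding.

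Windows of 3 members are shown because the probe of Hist1h1c stayed low while those of Hist1h1b and Hist1h2an returned, with all these motifs in capitals on either strand. They are Hist1h1b at chr13:21780576-21780875 on the minus strand, Hist1h1c at chr13:23738557-23738856 on the plus strand and Hist1h2an at chr13:21787199-21787498 on the minus strand.
Hist1h1b: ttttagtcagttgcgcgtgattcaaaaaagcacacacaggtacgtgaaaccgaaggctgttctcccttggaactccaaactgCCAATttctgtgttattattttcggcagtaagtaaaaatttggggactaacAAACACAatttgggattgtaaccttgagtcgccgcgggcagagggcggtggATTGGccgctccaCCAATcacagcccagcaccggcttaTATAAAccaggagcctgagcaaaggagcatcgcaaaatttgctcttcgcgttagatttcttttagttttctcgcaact
Hist1h1c: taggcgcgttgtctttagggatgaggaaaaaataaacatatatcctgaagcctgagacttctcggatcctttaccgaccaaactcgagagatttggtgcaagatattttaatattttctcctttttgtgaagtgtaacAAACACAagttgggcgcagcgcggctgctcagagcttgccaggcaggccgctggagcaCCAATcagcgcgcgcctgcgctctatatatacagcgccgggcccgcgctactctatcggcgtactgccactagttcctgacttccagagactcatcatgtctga
Hist1h2an: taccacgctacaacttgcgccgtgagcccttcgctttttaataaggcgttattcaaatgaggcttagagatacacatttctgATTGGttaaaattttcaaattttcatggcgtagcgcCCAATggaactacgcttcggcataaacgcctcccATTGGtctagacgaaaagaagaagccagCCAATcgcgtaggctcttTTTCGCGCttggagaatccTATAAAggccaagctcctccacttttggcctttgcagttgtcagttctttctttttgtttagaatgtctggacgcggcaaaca
Hist1h1b, the linker histone H1.5, was chosen after its values were seen. Its body probe read 0.23, -2.49, 0.61 and 3.34 in WT at the 4 times, with the 42 h value the highest, as for Hist1h2an. Hist1h1c, read distally, stayed low as given above, and both H1 windows hold AAACACA and CCAAT.

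The labelled cell type was checked against markers. All 8 B cell markers were well above background on every array, and their summed Cy5 signal was 237000 to 318000 at 0 h, 52700 to 71600 at 6 h, 70600 to 115000 at 24 h and 98900 to 108000 at 42 h. Of 10 erythroid markers 9 to 10 were above background at 0 h, and their sum went from 120000 to 318000 at 0 h to 55100 to 117000 at 6 h, 21500 to 34100 at 24 h and 18300 to 38500 at 42 h. The sums of 9 myeloid markers were 16500 to 20600 at 0 h and 5260 to 7070 at 6 h, and those of 5 NK markers 2670 to 4750 and 843 to 1030. The sums of 7 T cell markers were 6870 to 8820 at 0 h and 10500 to 16600 at 6 h, and those of 5 plasma cell markers 10600 to 12000 and 30000 to 41400. The median log2 ratio of the same T cell markers was -0.06 to 0.1 at 0 h and -0.74 to -0.51 at 6 h. Their sum thus rose while their median fell. The B cell, erythroid, myeloid and NK sums fell with the histone messages at 6 h, and stayed below their 0 h ranges at 24 h and 42 h. The distal probe median also stayed below its 0 h level in each genotype, while the body median was higher at 24 h than at 6 h. The part of these cells in the body and distal results was not tested.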

How the data were processed

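Sample RNA in Cy5 was hybridised with the reference pool in Cy3 on 16 Agilent arrays. The deposited mean and background intensities of both colours come from Agilent Feature Extraction 10.1.1.1 with probes placed on mm9, per the file headers. The deposited series table holds the log10 ratio of the processed signals for 100% of spots, with array medians of -0.144 to 0.022.

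From the intensities, limma 3.58.1 in R 4.3.3 computed log2 ratios of Cy5 to Cy3 after normexp background correction (offset 50) and loess within each array. Control spots and outlier flags were left out. Each gene name took its brightest probe, and a gene was tested where that probe was well above background, in Cy5 or Cy3, on 3 or more arrays. Models fitted all genes with lmFit and eBayes, and p-values were adjusted by Benjamini-Hochberg over all of them at 0.05. Time comparisons used the WT, Tlr7-/- and Tlr9-/- arrays with genotype as a block, and genotype comparisons the arrays at 6, 24 and 42 h with time as a block. The double knockout response used all 16. These had 6 residual degrees of freedom, and the Tlr9-/- change had 3. The number of arrays limits the precision. Scripts were tested on simulated data.

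The members and gene lists were chosen with earlier results of these data known. The named genes are the brightest of each class, up to 3 rises and 3 falls per class that were called and largest at 24 h, up to 5 per genotype comparison with the smallest adjusted p, and 6 with known polyadenylated or tissue-restricted messages, with up to 3 rises and falls for each list. The alternatives changed the background correction, scaling, filter, probe choice and arrays.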

Additional observations from a re-analysis of the deposited data

Results flagged for a closer look

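Some genes were singled out because the change from 24 h to 42 h differed between Tlr9-/- and the pair of WT and Tlr7-/-, by a test of that difference itself (limma, 3 residual degrees of freedom). The labelled Tlr9-/- arm has 1 array at each time, and the spread comes from WT and Tlr7-/- alone, on the other slide. Whether its 24 h and 42 h samples were exchanged was not tested. All of the 7 genes that tie at the smallest adjusted p are H2a genes, and the 5 with the smallest unadjusted p come first. The difference of the log2 changes was -6.25 for Hist1h2an, -5.68 for Hist1h2ah, -5.71 for Hist1h2af, -5.83 for Hist1h2ag and -5.47 for Hist2h2ac, each with an SE of 0.17 to 0.18 and a limma adjusted p of 5.45e-06. The other two were Hist1h2ak at -5.6 and Hist2h2aa2 at -5.12. In WT, Hist2h2ac went from -0.02 to 2.85 and in Tlr7-/- from -0.12 to 2.96, while in Tlr9-/- it went from 2.23 to -0.27. The probes of Hist1h2af, Hist1h2ak, Hist1h2an, Hist2h2aa2 and Hist2h2ac share at least 54 of 60 bases with that of another member, so the 7 are not independent of one another. Which gene the Hist1h2ag probe reads is uncertain, as given above. In all, 34 histone genes passed the same test.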

How the results depend on the processing

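Over the named genes, 1047 values were recomputed for 73 gene results. Of these 949 kept their direction and side of the threshold, 93 kept the direction but missed the threshold, 4 untested values moved and 1 reversed, Hist1h3c at 24 h versus 0 h, which read 0.03 with median centring. For 42 h versus 0 h the number called was 26 with median centring, against 17. For 24 h versus 6 h it was 29 with median centring, against 18. For 42 h versus 24 h it was 0 with the deposited processed signals under loess and under median centring, 0 with Cy5 alone and 0 with all 16 arrays, against 3. For the double knockout response at 6 h it was 1 with Cy5 alone, against 0.

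Leaving out each genotype in turn gave 22 to 42 calls at 6 h versus 0 h, 16 to 34 at 24 h versus 0 h, 11 to 33 at 42 h versus 0 h, 3 to 31 at 24 h versus 6 h, 0 to 35 at 42 h versus 24 h, and 0 to 4, 0 to 11 and 0 to 19 for the double knockout response at 6, 24 and 42 h. The cause was not tested. For the Tlr9-/- change, leaving out WT or Tlr7-/- leaves no residual degrees of freedom, so it gave values with no test. The alternative without the Tlr9-/- 0 h array was chosen after seeing the data. No paired analysis was possible because the labels carry no replicate numbers, and the comparisons of times already hold genotype as a block and those of genotypes time. Probes not well above background give only a bound.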
